A study of Homo sapiens with 4 samples.

Results

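The genes described here are the Wnt-induced feedback inhibitors AXIN2, DKK4, DKK1, NOTUM, RNF43, ZNRF3, NKD1, APCDD1, SP5 and WIF1, named by a rule that uses no measured value, though proposed with earlier results of these data known. Of these 10 genes, 9 were analysed among 19192 genes counted in each library, and NKD1 was not analysed here. The cells were SW480, an established human colorectal adenocarcinoma line, either wild type or labelled IMP1-/-, and no treatment is named for either. IMP1 is an RNA-binding protein encoded by IGF2BP1. From each genotype total RNA and ribosome-protected fragments, or footprints, were sequenced, which gave 4 libraries, 1 per group, each from 3 pooled culture plates. For wild-type RNA the labels give SW840 as the cell line and SW480 as the source, and that library was taken as SW480. Whether the IMP1-/- cells are a clone is not given in the sources used here. Genotype, clone, culture and library therefore cannot be told apart, and no difference below has a replicate check or a p-value.

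Wnt proteins bind Frizzled and LRP receptors at the cell surface, which blocks the destruction complex that degrades β-catenin, and β-catenin then activates genes together with TCF and LEF factors. The feedback inhibitors are themselves targets of that transcription and act back on the pathway at each of its levels, outside the cell, at the membrane, in the cytoplasm and in the nucleus. SW480 cells carry truncated APC, a scaffold of the destruction complex, so their β-catenin is held active downstream of the receptors, and several of these inhibitors are widely used as readouts of β-catenin activity in the colon.

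Library totals ran from 3778316 to 5551479 counts. IGF2BP1 itself was counted 598 times in wild-type RNA and 571 times in RNA labelled IMP1-/-, a log2 change of 0.08 (95% counting interval −0.08 to 0.25). Its footprints numbered 285 and 149, a change of −0.93 (−1.23 to −0.65). The exons that these reads cover cannot be read from sums per gene, so every direction below is between libraries as labelled. The epithelial markers EPCAM, KRT8, KRT18 and KRT19 had 1081 to 52179 reads in the 4 libraries, whereas KRT20 and LGALS4 were at 0 in all of them. KRT8 and KRT18 had fewer reads in the libraries labelled IMP1-/- (KRT18, 26170 and 15373 in RNA, wild type first). Of the 12 colon epithelium markers, VIL1 went from 160 to 2 RNA reads and from 335 to 0 footprints, CDX2 from 268 to 103 and from 108 to 72, and CDH1 from 83 to 286 and from 88 to 275. The other markers of that list, CDX1, GPA33 and CEACAM5, had 0 to 6 reads. Markers of other cells summed to 2 to 31 reads for fibroblasts (8 genes), 11 to 221 for leukocytes (6 genes), all of them CD68 in both libraries labelled IMP1-/-, with PTPRC and CD3E at 0, and 10 to 2027 for endothelium (5 genes), of which KDR made up 1969. The part of these markers in the results below was not tested. In bulk libraries fewer cells that express a gene and less RNA per cell cannot be told apart.

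Reads of 8 of the 9 inhibitors were detected, and 7 of these 8 were lower in the cells labelled IMP1-/- in RNA and in footprints alike. DKK4 fell farthest, to 1.63% of its wild-type RNA level and 0.987% of its footprint level, followed by APCDD1 at 6.49% and 11.5%. AXIN2, NOTUM, RNF43, SP5 and ZNRF3 were left with 22.3% to 33.0% of their wild-type RNA. DKK1 was neither higher nor lower by the rule used, and WIF1 had no read. A gene was called lower or higher when its scaled level differed at least 2-fold and the 95% counting interval of the ratio excluded no change, among genes whose reads in the pair of libraries of a kind summed to 50 or more. In RNA 8.35% of 10875 such genes were lower by that rule and 6.39% higher, and in footprints 9.87% of 9794 were lower and 9.0% higher. The median change of the 8 inhibitors was −2.09 in RNA and −2.36 in footprints on the log2 scale, against −0.01 and −0.0007 over all genes measured. The Wnt target list of which AXIN2, RNF43, SP5 and NOTUM are part had been found lower in these libraries before, so this count is no independent evidence of the direction.

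**Figure D1:**
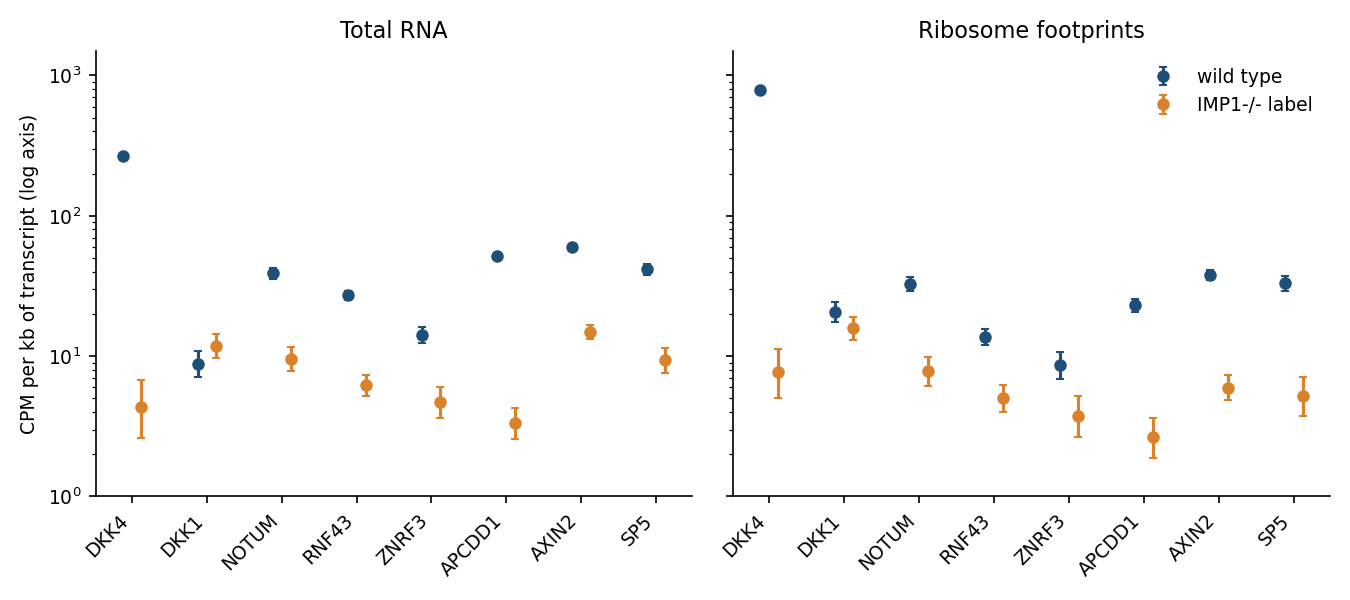
Level of the 8 detected inhibitors in CPM (reads per 1000000 counted in the library) per kilobase of transcript, on a log axis, in total RNA (left) and footprints (right); points are libraries (blue, wild type; orange, labelled IMP1-/-) and bars are exact Poisson 95% intervals, which cover counting error only. DKK4 ranges from 793 to 4.31, and only DKK1 has overlapping intervals for the genotypes in both panels.

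Among the secreted inhibitors, DKK4 is a Dickkopf protein that binds LRP coreceptors and keeps Wnt from engaging them. DKK4 (ENST00000220812, at 42374068 to 42377232 on the minus strand of chromosome 8, GRCh38) was counted 1325 times in wild-type RNA and 19 times in RNA labelled IMP1-/-, or 239 and 3.85 CPM. Its footprints numbered 2682 and 26, or 709 and 6.88 CPM. Per kilobase of transcript it stood at percentiles 98.5 and 99.2 of all genes with a read in wild-type RNA and footprints, and at percentiles 40.3 and 52.7 in the libraries labelled IMP1-/-. The log2 change was −5.94 (−6.71 to −5.32) in RNA and −6.66 (−7.31 to −6.13) in footprints, and in each measurement DKK4 ranked 4 from the bottom of all genes measured.

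DKK1, the founding member of the same family and likewise an LRP-binding antagonist, did not share this pattern. DKK1 (ENST00000373970, chromosome 10, 52314296 to 52317657, plus strand) had 88 and 104 RNA reads, wild type first, and 140 and 107 footprints. Its RNA change was 0.39 (−0.03 to 0.82) and its footprint change −0.39 (−0.77 to −0.02). The first interval includes no change and the second excludes it narrowly, and neither reached 2-fold. The change of DKK4 minus that of DKK1 was −6.33 (−7.09 to −5.56) in RNA and −6.28 (−6.94 to −5.61) in footprints, so these related genes differed far beyond counting error. Of the DKK1 transcript, 11.8% is shared with exons of the antisense gene PRKG1-AS1, and whether counting used strand is not given in the sources used here.

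NOTUM, the secreted enzyme that removes the lipid from Wnt proteins, was lower in both measurements. NOTUM (ENST00000409678, chromosome 17, 81952507 to 81961293, minus strand) had 503 RNA reads in wild type and 110 in the library labelled IMP1-/-, and 289 and 69 footprints. The RNA and footprint changes were nearly equal, at −2.04 (−2.35 to −1.74) and −2.06 (−2.47 to −1.68), or 4.10-fold and 4.17-fold. WIF1 (ENST00000286574, chromosome 12, 65050626 to 65121566, minus strand), a secreted protein that binds Wnt directly, had 0 reads in each of the 4 libraries. A count of 0 allows up to 3 counts, which is 0.540 and 0.608 CPM in the RNA libraries and 0.793 and 0.794 CPM in the footprint libraries, wild type first, so no change in WIF1 was detectable at this depth.

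At the membrane, RNF43 and ZNRF3 are homologous ubiquitin ligases that remove Frizzled from the cell surface and that R-spondins inhibit. RNF43 (ENST00000577716, chromosome 17, 58353676 to 58417582, minus strand) had 657 and 134 RNA reads and 228 and 83 footprints, wild type first. Its RNA was 4.40-fold lower, a change of −2.14 (−2.42 to −1.87), and its footprints 2.74-fold lower, a change of −1.45 (−1.84 to −1.09). ZNRF3 (ENST00000402174, chromosome 22, 28917389 to 29053685, plus strand) had 210 and 62 RNA reads and 87 and 38 footprints. The RNA change of ZNRF3 was −1.60 (−2.04 to −1.19) and its footprint change −1.19 (−1.79 to −0.63), the latter on few reads.

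The pair of ligases thus went the same way, with the larger fall in RNF43 RNA. The RNA change of RNF43 minus that of ZNRF3 was −0.54 (−1.02 to −0.05), while in footprints the difference was −0.27 with an interval of −0.92 to 0.39 that includes 0. Exons of the same-strand gene AC004687.2 share 70.0% of the RNF43 transcript, and those of the antisense gene TSPOAP1-AS1 share 7.74%. Neither is among the genes counted, and how reads in shared exons were assigned is not given in the sources used here.

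APCDD1, a membrane glycoprotein that binds Wnt and LRP5 and inhibits signalling in the receiving cell, had the second largest fall. APCDD1 (ENST00000355285, chromosome 18, 10454628 to 10489948, plus strand) had 1086 RNA reads in wild type and 63 in the library labelled IMP1-/-, and 333 and 38 footprints. Its RNA change was −3.95 (−4.35 to −3.59), rank 16 from the bottom of all genes measured, and its footprint change −3.12 (−3.66 to −2.65), rank 35. Like DKK4, it was among the more abundant of these mRNAs in wild type and among the least abundant in the cells labelled IMP1-/-.

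In the cytoplasm, AXIN2 is the inducible scaffold of the β-catenin destruction complex and a common reporter of pathway activity. AXIN2 (ENST00000307078, chromosome 17, 65528563 to 65561647, minus strand) had 1410 RNA reads in wild type and 312 in the library labelled IMP1-/-, and 612 and 96 footprints. AXIN2 was 4.06-fold lower in RNA, a change of −2.02 (−2.21 to −1.85), and 6.35-fold lower in footprints, a change of −2.67 (−3.0 to −2.36). These intervals do not overlap, so the footprint fall was the larger. Exons of the same-strand gene AC004805.1 share 30.9% of the AXIN2 transcript.

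In the nucleus, SP5 is a zinc finger factor that represses genes at sites bound by the related SP1. SP5 (ENST00000375281, chromosome 2, 170715351 to 170718078, plus strand) had 471 and 94 RNA reads and 254 and 40 footprints, wild type first. Its changes were −2.17 (−2.51 to −1.85) in RNA and −2.65 (−3.19 to −2.18) in footprints, close to those of AXIN2.

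**Figure D2:**
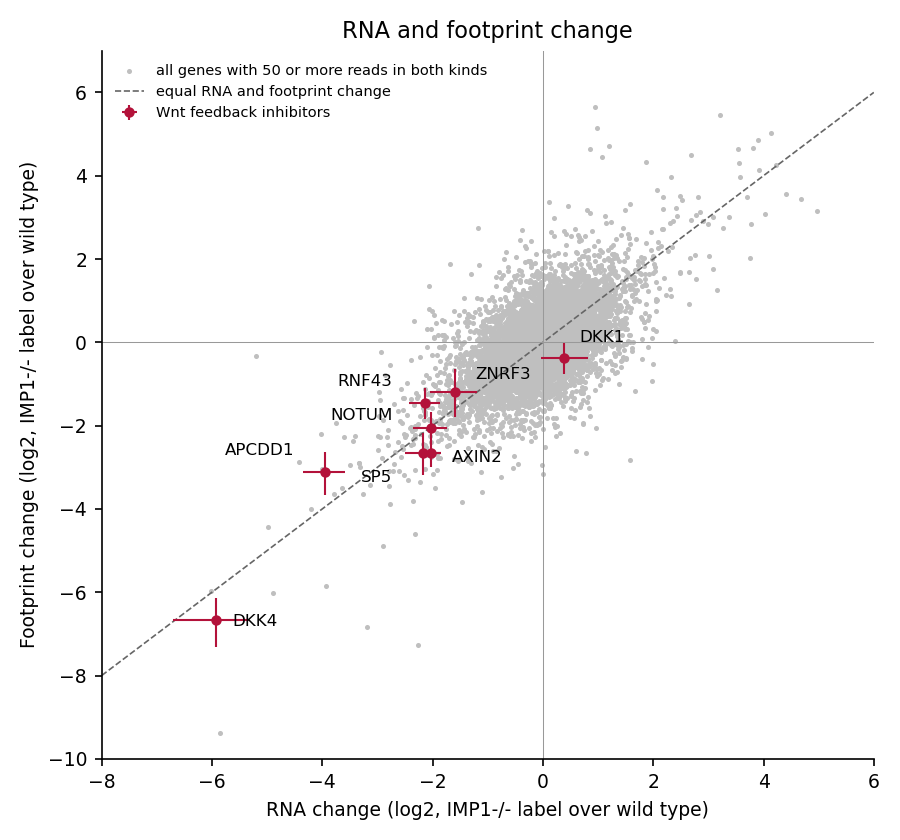
RNA change (horizontal) against footprint change (vertical), both log2 of the library labelled IMP1-/- over wild type; red points with 95% counting intervals are the 8 detected inhibitors, grey points the genes with 50 or more reads in both library kinds, and the dashed line marks equal change. DKK4 lies at −5.94 and −6.66 and APCDD1 at −3.95 and −3.12, while DKK1 lies near the centre of the grey cloud.

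Because these genes are targets of TCF and LEF factors and 7 of them were lower together, their promoters were searched for the core letters of the sites those factors bind, CTTTGA and CTTTGT, on both strands (reverse complements TCAAAG and ACAAAG). The windows are the 250 bases before the RefSeq start site (GRCh38.p14). Those of 5 of the 9 analysed inhibitors were used, namely SP5, DKK1, RNF43, APCDD1 and WIF1. The promoters of DKK4, AXIN2, NOTUM and ZNRF3 were not searched. SP5 and DKK1 are shown because they hold the most matches while only SP5 fell, and APCDD1 because it fell by more with no match. Matches are in capitals, and each sequence runs 5′ to 3′ on the gene's own strand, which is the plus strand for these 3 genes, at chr2:170715087-170715336 for SP5, chr10:52314031-52314280 for DKK1 and chr18:10454385-10454634 for APCDD1.

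SP5: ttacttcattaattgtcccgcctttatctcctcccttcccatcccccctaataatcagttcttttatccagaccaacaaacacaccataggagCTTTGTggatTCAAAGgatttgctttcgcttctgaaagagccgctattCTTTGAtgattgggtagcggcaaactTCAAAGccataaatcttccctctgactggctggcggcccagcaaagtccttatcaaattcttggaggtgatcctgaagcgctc

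DKK1: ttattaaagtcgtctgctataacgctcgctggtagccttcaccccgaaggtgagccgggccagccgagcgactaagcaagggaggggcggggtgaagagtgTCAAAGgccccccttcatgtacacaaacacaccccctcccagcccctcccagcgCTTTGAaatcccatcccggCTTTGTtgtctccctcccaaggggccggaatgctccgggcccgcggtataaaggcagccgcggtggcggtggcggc

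APCDD1: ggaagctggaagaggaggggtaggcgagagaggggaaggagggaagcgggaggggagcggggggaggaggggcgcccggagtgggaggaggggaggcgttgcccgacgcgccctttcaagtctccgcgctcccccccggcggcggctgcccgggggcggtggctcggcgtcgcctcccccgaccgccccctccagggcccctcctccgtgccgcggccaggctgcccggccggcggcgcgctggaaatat

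SP5 held 4 matches between −157 and −78 from the start, 3 of them CTTTGA. DKK1 held 3 matches between −149 and −71, RNF43 held 1 CTTTGT, and APCDD1 and WIF1 held 0. The RefSeq start used for WIF1 lies 261 bases from that of its counted transcript, whose span contains the WIF1 window. Among 35116 promoter windows of the same length 22.8% had at least 1 match to either motif, 0.584% had 3 or more and 0.057% had 4 or more. A match is a description of letters and no evidence of binding, and both SP5, which fell, and DKK1, which was not called, were among the windows with 3 or more.

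Compared per kilobase of transcript, the wild-type cells held far more DKK4 mRNA than any other inhibitor. In wild-type RNA the level was 267 CPM per kilobase for DKK4 and 59.6 for AXIN2, then 51.4 for APCDD1, 41.7 for SP5, 38.9 for NOTUM, 27.1 for RNF43, 14.2 for ZNRF3 and 8.86 for DKK1. SP5 and NOTUM had overlapping Poisson 95% intervals (38.0 to 45.7 and 35.6 to 42.5), and the other neighbours in this order did not overlap. DKK4 lay at percentile 98.5 of all genes with a read and DKK1 at percentile 57.3.

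In RNA labelled IMP1-/- the order was different. AXIN2 led at 14.9 CPM per kilobase, followed by DKK1 at 11.8, with overlapping intervals (13.2 to 16.6 and 9.62 to 14.3). NOTUM and SP5 followed at 9.58 and 9.37, then RNF43 at 6.22, ZNRF3 at 4.71, DKK4 at 4.31 and APCDD1 at 3.35, and from DKK1 to SP5 and from RNF43 to APCDD1 the neighbouring intervals overlapped. By coding length in place of transcript length, APCDD1 stood ahead of AXIN2 in wild-type RNA (127 and 100.4 CPM per coding kilobase), and DKK1 ahead of ZNRF3 (19.9 and 15.1). In RNA labelled IMP1-/- DKK1 then stood ahead of AXIN2 (26.4 and 25.01), SP5 ahead of NOTUM (15.96 and 14.99), and APCDD1 ahead of DKK4 and ZNRF3, which was the lowest (8.28, 5.73 and 5.01).

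In footprints the order also differed between the genotypes. In the wild-type library DKK4 stood at 793 CPM per kilobase and the other detected inhibitors between 38.0 (AXIN2) and 8.62 (ZNRF3). In the library labelled IMP1-/- DKK1 led at 15.8 (13.0 to 19.1), above NOTUM at 7.84 (6.10 to 9.92), DKK4 at 7.70 and AXIN2 at 5.97, whose intervals overlapped, and APCDD1 was the lowest at 2.64, or ZNRF3 by coding length (4.01 CPM per coding kilobase, with APCDD1 at 6.52). As a share of all inhibitor footprints, DKK4 went from 58.0% of 4625 reads (Wilson 95% interval 56.6 to 59.4) to 5.23% of 497 (3.59 to 7.55), and DKK1 from 3.03% (2.57 to 3.56) to 21.5% (18.1 to 25.4). Footprints of DKK1 itself numbered 140 in wild type and 107 in the library labelled IMP1-/-.

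Summed over the 9 genes, inhibitor RNA went from 1036 to 182 CPM and inhibitor footprints from 1223 to 132 CPM. The sums were 5.77-fold lower in RNA and 9.31-fold lower in footprints. Without DKK4 they were 4.53-fold and 4.13-fold lower, so the larger fall of the footprint sum rested on that gene.

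Translational efficiency (TE), the footprint CPM of a gene over its RNA CPM, separated the Dickkopf genes from the rest in wild-type cells. DKK4 had a TE of 2.97 (95% interval 2.78 to 3.17) and DKK1 of 2.33 (1.79 to 3.04), at percentiles 96.4 and 90.7 of the 9598 genes measured in both kinds. The other 6 lay below the median of all genes, which was 1.08, from 0.450 for APCDD1 (0.398 to 0.509) to 0.844 for NOTUM (0.730 to 0.975). The coding part is 672 of 894 transcript bases for DKK4, 1542 of 3809 for APCDD1 and 2508 of 2667 for ZNRF3. Whether untranslated bases were counted is not given in the sources used here, and their part in the TE order of genes was not tested. In the cells labelled IMP1-/- DKK4 had 1.77 (0.989 to 3.18), DKK1 1.34 (1.03 to 1.76) and AXIN2 0.403 (0.321 to 0.506). RNF43, ZNRF3 and APCDD1 then lay between 0.791 and 0.810.

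**Figure D3:**
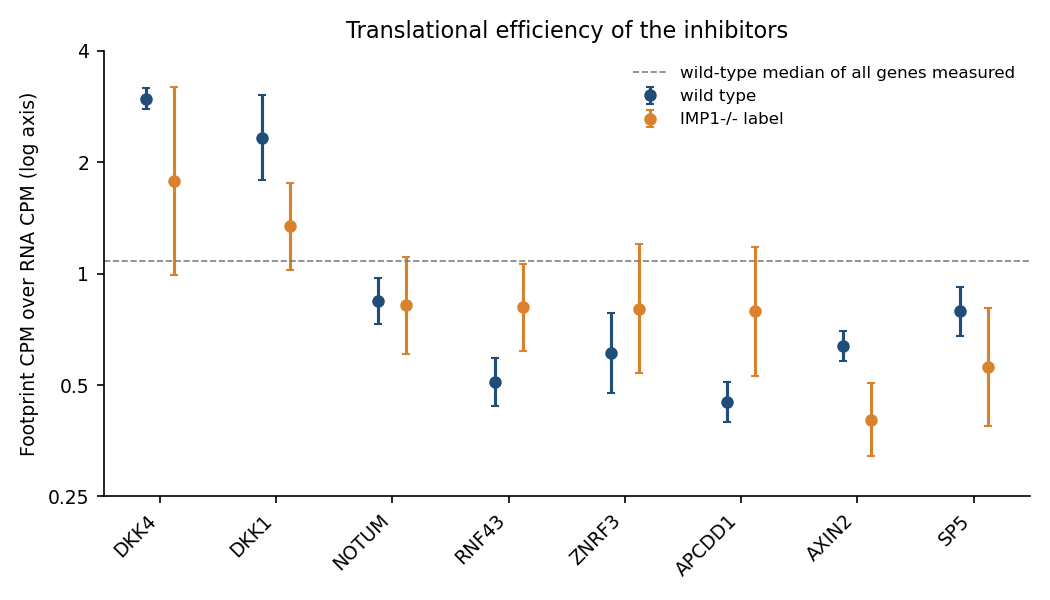
Translational efficiency, footprint CPM over RNA CPM on a log axis, of the 8 detected inhibitors in wild type (blue) and cells labelled IMP1-/- (orange), with 95% intervals from read counts; the dashed line is the wild-type median of all genes measured, 1.08. Only the points of DKK4 and DKK1 lie above that line, and in the cells labelled IMP1-/- their intervals reach below it (0.989 and 1.03). RNF43, ZNRF3 and APCDD1 have higher values in the cells labelled IMP1-/- than in wild type, with overlapping intervals for ZNRF3.

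The change in TE, which is the footprint change minus the RNA change, was smaller than 2-fold for each of the 8 inhibitors, so 0 were called in either direction, against 6.28% of genes lower and 6.46% higher. The median was −0.25, and 0.03 over all genes. The interval excluded no change for 4 of 8, with 2 lower and 2 higher, against 21.5% and 24.9% of all genes, and the same 4 passed at 1.5-fold, against 13.9% and 15.7%. AXIN2 had −0.64 (−1.00 to −0.29) and DKK1 −0.78 (−1.32 to −0.23). RNF43 had 0.69 (0.24 to 1.13) and APCDD1 0.83 (0.23 to 1.43).

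The values of the others were −0.73 for DKK4 (−1.58 to 0.12), −0.48 for SP5 (−1.06 to 0.09), −0.02 for NOTUM (−0.50 to 0.46) and 0.42 for ZNRF3 (−0.27 to 1.1), with intervals that include no change. By place in the cell, the 3 membrane proteins RNF43, ZNRF3 and APCDD1 had values above 0 and the 5 secreted, cytoplasmic and nuclear ones below it. That grouping was noticed after the values were seen. The TE change of DKK4 minus that of DKK1 was 0.05 (−0.96 to 1.06), an interval that includes 0.

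The chromosomal surroundings were examined because AXIN2, RNF43 and NOTUM share chromosome 17 with IGF2BP1. The 20 nearest genes measured in RNA, 10 on each side, had median changes between −0.57 (APCDD1) and 0.08 (DKK4) around the 9 inhibitors. Around AXIN2 the median was −0.12, and 2 of 20 neighbours were lower and 1 was higher. Around DKK4 1 was lower and 3 were higher. More neighbours were lower around NOTUM (6 of 20, median −0.24), RNF43 (6 of 20, −0.45) and SP5 (4 of 20, −0.32). Of all genes measured in RNA 8.35% were lower. The median of all chromosome 17 genes was −0.06, and that of the 136 genes of chromosome 18, which holds APCDD1, was −0.20. Among the inhibitors that fell, the lowest neighbour of SP5 had a change of −2.23, below SP5 itself, that of RNF43 −2.12, that of APCDD1 −2.39 and that of NOTUM −1.95.

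The other genes of the Wnt pathway are given by list, and no difference between lists was tested. Over all genes measured 8.35% were lower and 6.39% higher in RNA, and 9.87% and 9.0% in footprints. In RNA 87.5% of the measured inhibitors lay below 0, as did 85.7% of the other antagonists, 82.6% of the other target genes and 50.7% of all genes. Of 21 other Wnt antagonists 7 were measured in RNA, of which 2 were lower and 0 higher (median −0.33). SFRP5, a secreted Wnt-binding protein, had 70 and 10 RNA reads and was 6.05-fold lower, and NKD2, a Dishevelled-binding relative of NKD1, had 252 and 92 and was 2.46-fold lower. TPBG and TRABD2A had RNA changes of 0.96 and −0.81 without reaching 2-fold. In footprints 2 of 7 antagonists were lower, SFRP5 and KREMEN1 (56 and 12 reads), and 1 was higher, DKK3 (23 and 57). NKD2 was called neither in footprints, and TRABD2A had a footprint change of 0.77.

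Among Wnt ligands and their secretion machinery 10 genes were measured in RNA, of which 4 were lower and 1 was higher (median −0.65). The ligands WNT6 and WNT5A were 3.49-fold and 2.24-fold lower in RNA and 3.31-fold and 3.24-fold lower in footprints. WNT16 had 43 and 13 RNA reads. PORCN, which attaches the lipid to Wnt that NOTUM removes, was 2.61-fold higher in RNA (95 and 224 reads) and 2.1-fold higher in footprints. Of the 6 genes of that list measured in footprints, 2 were lower and 2 higher. The ligand WNT9A was higher, with 1 and 53 footprints on 66 and 117 RNA reads.

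Receptors and the R-spondin axis had 3 of 13 genes lower in RNA and 0 higher (median −0.15). They were ROR1 (79 and 9 reads), ROR2 (54 and 11) and the R-spondin receptor gene LGR6 (188 and 67), while FZD3, a Frizzled receptor, had a change of −0.84. In the destruction complex and Dishevelled list 3 of 18 were lower and 1 higher (median 0.09). APC2 was 5.28-fold lower on 231 and 39 reads, and CTNNB1, which encodes β-catenin, had an RNA change of −1.05 and a footprint change of −1.41. BTRC, the ubiquitin ligase subunit that recognises β-catenin, was 2.20-fold higher in RNA, and the tankyrase TNKS, which marks axins for degradation, had an RNA change of 0.94 and was 3.19-fold higher in footprints.

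Nuclear effectors had 4 of 15 genes lower in RNA and 0 higher (median −0.30). These were TCF7 and LEF1, of the TCF and LEF family, and the corepressor genes TLE1 and TLE4. TCF7 was 2.66-fold lower in RNA and 2.68-fold lower in footprints. LEF1 was 2.23-fold lower in RNA but had a footprint change of 0.09 (−0.28 to 0.46).

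The list nearest to the inhibitors was that of other Wnt target genes, with 12 of 23 genes lower in RNA and 3 higher (median −1.07). The homeobox gene MSX1 had 686 and 44 reads, the helix-loop-helix gene ID2 632 and 50, the BMP pseudoreceptor gene BAMBI 911 and 139, and the crypt stem cell factor gene ASCL2 346 and 69. Their RNA changes were −3.80, −3.50, −2.56 and −2.17. The 3 genes called higher in RNA were JUN (246 and 519 reads), CLDN1 (131 and 331) and ADAMTSL5 (26 and 62). In footprints 9 of the 20 measured genes of that list were lower and 4 higher (median −0.78). Some genes are in more than 1 list.

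**Figure D4:**
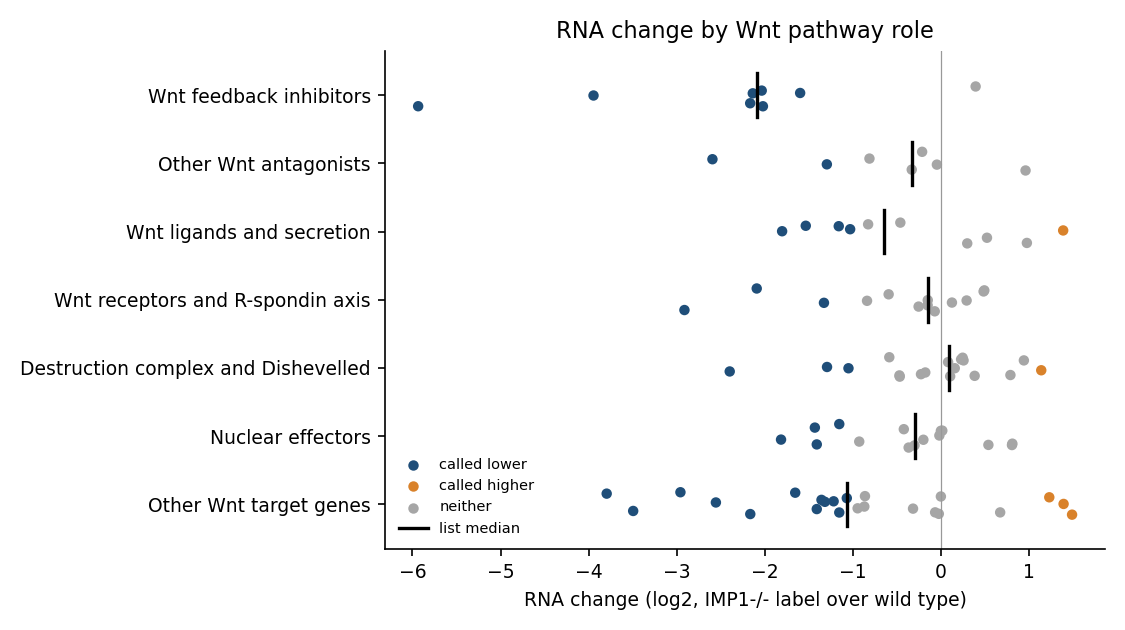
RNA change (log2, library labelled IMP1-/- over wild type) of each measured gene in 7 Wnt lists; blue points were called lower, orange higher and grey neither, black bars are list medians, and vertical scatter within a list carries no value. The inhibitors have a median of −2.09 and the other target genes of −1.07, and the remaining medians lie between −0.65 and 0.09.

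Outside the inhibitors, the genes most like AXIN2 by distance in RNA and footprint change, among 9590 genes measured in both kinds, were PDE4D (distance 0.05), ADRA2C (0.06), SDK1 (0.08), HIST1H3I (0.08) and NRARP (0.10). PDE4D, a phosphodiesterase gene, had 998 and 218 RNA reads and 600 and 97 footprints. The genes nearest to DKK4 lay farther off, namely IGFBP3 (distance 0.70), ASB4 (1.23), CKMT2 (2.17), ZAP70 (2.41) and VIL1 (2.73). In the libraries labelled IMP1-/- these genes had few reads (VIL1, 2 RNA reads and 0 footprints). The part of this in the larger distances was not tested. IGFBP3, an IGF-binding protein gene, had 393 and 5 RNA reads and 405 and 6 footprints. Distances are in log2 units over 4 libraries.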

How the data were processed

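Groups were taken from the library titles. Inserts of 18 to 34 nt (footprints) or 18 to 50 nt (RNA) were kept and amplified for 15 cycles, per the labels' protocols. HISAT2 2.1.0, Bowtie 1.1.2, cutadapt 1.10 and GRCh38 appear in the submitters' processing notes. What each did, the annotation, the counted region, strand and any use of the linkers' molecular identifiers: not given in the sources used here. Raw read counts per gene, 1 Ensembl transcript each, were deposited by the authors. Positions, exons and lengths came from GENCODE release 29, which held 19176 of the 19192 transcripts.

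Libraries of 1 kind were scaled with edgeR 4.0.16 (TMM) under R 4.3.3. Python 3.11.15 with SciPy 1.17.1, pandas 2.3.3 and NumPy 2.4.6 did the rest. The RNA and footprint changes are log2 ratios with a prior count of 0.5 and exact conditional (Clopper-Pearson) 95% intervals. Intervals of TE and of differences between genes use summed reciprocal counts. Reads after PCR are not molecules, so intervals and floors cover counting error only. With 0 residual degrees of freedom no test was made. The scripts were tested on simulated data. Levels in CPM use library totals.

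The inhibitors and lists were chosen with earlier results of these data known. Named genes are the inhibitors, IGF2BP1, up to 4 genes per list with the RNA interval bound farthest from no change, and the 5 genes nearest to AXIN2 and to DKK4. The 3 other Wnt target genes called higher in RNA are named as well, as are KREMEN1, DKK3 and WNT9A, which were called in footprints. Alternatives were scaling, minimum reads, prior count, fold, and length.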

Additional observations from a re-analysis of the deposited data

How the results depend on the processing

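No paired analysis was possible because each group has 1 library and no test was made, and no library could be left out. The RNA, footprint and TE changes of the inhibitors gave 96 values under other scalings (library totals, DESeq2 1.42.0 size factors, no MTRNR2L genes and no most abundant gene) and a prior count of 2, and all 96 stayed within their counting intervals. The minimum (20, 0 or 200 reads) and the fold for a call do not enter a gene's own change. At 200 reads DKK1 dropped out of RNA and ZNRF3 out of footprints. A 1.5-fold call gave 2 inhibitors lower and 2 higher in TE. Counts over all genes moved by more than 1.5 times with the minimum and the fold. Without a minimum 1396 genes were lower and 1304 higher in RNA, 1524 and 1499 in footprints and 1059 and 1079 in TE. With 200 reads these were 501 and 306, 470 and 368, and 131 and 169. At 1.5-fold they were 1938 and 1759, 1971 and 1861, and 1335 and 1510. By coding length DKK4 over AXIN2 was 3.54 in wild-type RNA and 16.5 in wild-type footprints. Totals that leave out MTRNR2L genes and the most abundant gene rescale the TE of every inhibitor in a genotype alike. Wild-type TE was then 0.555 for AXIN2, 2.59 for DKK4 and 0.392 for APCDD1, outside their counting intervals. The other detected inhibitors stayed within theirs. These values use the minimum, fold, length or totals directly, and no other cause was tested. Depth limits ZNRF3, SP5, APCDD1 and DKK4 in the footprint library labelled IMP1-/-, where they had 26 to 40 reads. The footprint comparison does not use the library whose cell-line field reads SW840.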
